A study of Drosophila melanogaster with 4 samples.

Results

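Glioma larvae that also carried an RNA interference construct against the calcium channel gene Ca-alpha1T were compared with Control larvae, to ask what still differed from Control when the channel was targeted in the tumour. The comparison took the 11416 of 11880 listed genes with 10 or more read counts in 1 or both of these libraries, and 2 of the 4 libraries of the study. The samples were whole heads of Drosophila melanogaster larvae, sequenced as poly-A RNA, and each group was 1 library. Control carried tub>Gal80[ts] with repo>Gal4 and UAS-myrRFP, so that glia made a membrane-bound red fluorescent protein. The library labelled Ca-alpha1T RNAi, called the RNAi library from here on, carried the same 3 kinds of element. To these it added UAS-dEGFR[L], UAS-dp110[CAAX] and UAS-Ca-alpha1T-RNAi. Glioma had the EGFR and dp110 constructs without an RNAi, and a further library, slo RNAi, had an RNAi against the potassium channel gene slo added to the oncogene constructs. Eggs were laid over 3 days at 25 °C in all groups, and larvae then spent 5 days at 29 °C. All samples have the batch label Batch_1. Control has neither oncogene construct nor any RNAi construct, so effects of the oncogenes and of the RNAi cannot be told apart here. How many larvae made up a library, their sex and their stage are not given in the labels.

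Gal4 is a yeast activator that switches on genes placed behind UAS sites. The repo driver confines it to glia, the support cells of the nervous system, and the Gal80 repressor blocks it until the larvae are warmed. EGFR signals through Ras and MAP kinase and dp110 is the catalytic subunit of PI3K, which signals through Akt, and activating both in fly glia makes the glia overgrow. Ca-alpha1T encodes the pore of a T-type channel, which opens at low voltage and lets calcium into the cell. A larval head also holds muscle, fat body, epidermis and parts of the gut and salivary glands. These tissues follow the moulting hormone ecdysone towards metamorphosis, and the fat body makes most of the antimicrobial peptides released into the blood.

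Total counts were 36932553 in Control and 31594447 in the RNAi library, against 38826243 in Glioma and 32092414 in slo RNAi. Transcripts of the mitochondrial genome made up 7.77% of counts in Control and 10.7% in the RNAi library. Markers of the labelled tissue were present, with all 4 neuronal, 4 neuroblast, 5 glial and 4 eye disc markers detected in both libraries. So were all markers of muscle, salivary gland, fat body, gut and haemocytes. The summed neuronal markers elav, nSyb, brp and Syt1 stood at 321 CPM, which are read counts relative to the TMM-scaled library size, in Control and 308 in the RNAi library. In the same order, the neuroblast markers summed to 52.6 and 42.7 CPM and those of the eye disc to 81.7 and 76.8 CPM. Other tissues stood farther from Control. The 5 glial markers summed to 115 and 235 CPM, with 2 called higher. The 6 salivary gland markers summed to 22000 and 1320 CPM, with all 6 called lower. Haemocyte markers summed to 60.5 and 95.5 CPM, those of muscle to 8170 and 10700, of fat body to 16200 and 14300, and of gut to 166 and 153. In such mixed tissue, fewer cells of a type and less RNA per cell cannot be told apart.

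Both oncogene transcripts and the driver's own gene stood far above Control. Egfr, which encodes the receptor, was at 182 CPM in Control, 897 in Glioma, 962 in the RNAi library and 651 in slo RNAi. Its log2 ratio of the RNAi library over Control was 2.40, with a 95% counting interval of 2.37 to 2.44. Pi3K92E, the gene of dp110, was at 98.6, 903, 880 and 373 CPM in the same order, a log2 ratio of 3.16 (3.11 to 3.21). Construct and endogenous transcripts share a gene row and cannot be separated. The eye colour gene w, which many inserted constructs carry, was at 8.76, 224, 184 and 156 CPM, a log2 ratio of 4.39 (4.24 to 4.56). The gene repo, which encodes a transcription factor of glia, was at 16.7, 36.6, 40.9 and 38.2 CPM, a log2 ratio of 1.29 (1.16 to 1.43). Control was the lowest of the 4 libraries for each of these genes.

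The targeted gene did not stand below Control. Counts of Ca-alpha1T were 506 for Control, 673 for Glioma, 578 for the RNAi library and 536 for slo RNAi, which is 12.9, 19.1, 16.6 and 17.8 CPM. The log2 ratio of the RNAi library over Control was 0.37 (0.19 to 0.54), and it stayed between 0.21 and 0.46 under all alternative settings tried. Against Glioma the ratio was −0.20 (−0.36 to −0.04), and it turned to 0.08 on total counts. A lower level of the targeted gene therefore does not show in this library. The construct acts in glia while the whole head was sequenced, so the level in glia cannot be read from these data. Every direction below is therefore that of the library labelled Ca-alpha1T RNAi.

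Calls rested on the size of the difference alone: at least 2-fold from Control, with a counting interval that excludes equality. With 1 library per group no difference has a replicate check, no test between conditions was made, and intervals cover counting error only. By this rule 691 genes were higher (6.05% of the genes compared) and 474 lower (4.15%). At 4-fold, 194 were higher (1.70%) and 135 lower (1.18%). The median log2 ratio of all genes was −0.02, and 8364 genes, or 73.3%, lay within 0.5 of 0. At the far ends, 85 genes were higher and 53 lower by a log2 ratio of at least 3. With the authors' TPM in place of scaled counts the median of all genes moved to 0.13, and the split became 521 higher and 219 lower. Called genes were thus 70.4% higher on that scale, against 59.3% on the scale used here. The authors' deposited table lists 610 genes higher and 408 lower for this pair at 2-fold and an adjusted p below 0.05. Of those, 598 and 408 were also called here in the same direction, from the same single libraries.

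**Figure D1:**
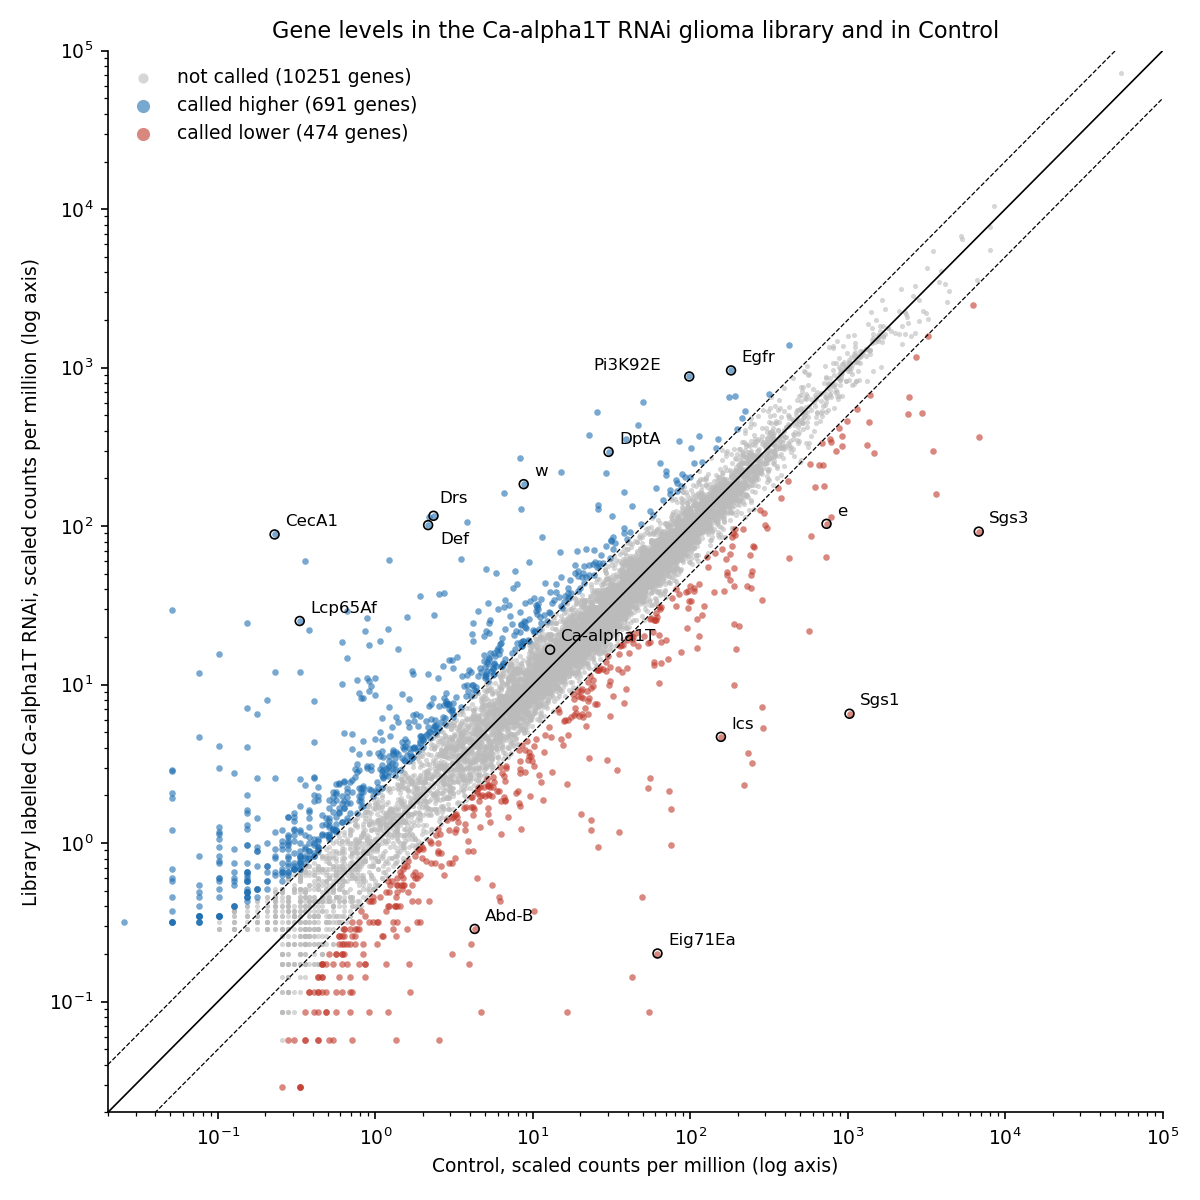
Level of each of the 11416 genes in Control (x axis) and in the library labelled Ca-alpha1T RNAi (y axis), both in CPM on log axes. Each point is a gene, dashed lines mark 2-fold, and the 691 genes called higher lie above them and the 474 called lower below; CecA1 sits at 0.229 CPM in Control and 88.7 CPM in the RNAi library, and Sgs1 at 1030 and 6.56 CPM.

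Of 42 gene lists, the antibacterial peptide genes had the highest median log2 ratio, 3.57, and the salivary glue genes the lowest, −4.23. Cuticle, gut, pigmentation and detoxification lists held members called in both directions. The count of a list's called members is to be read against 6.05% of all genes higher and 4.15% lower. Lists of ribosomal proteins, proteasome, glycolysis, respiration, cell cycle, Notch and Wnt genes held no called member. In all, 107 of the higher and 73 of the lower genes stood in at least 1 list.

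**Figure D2:**
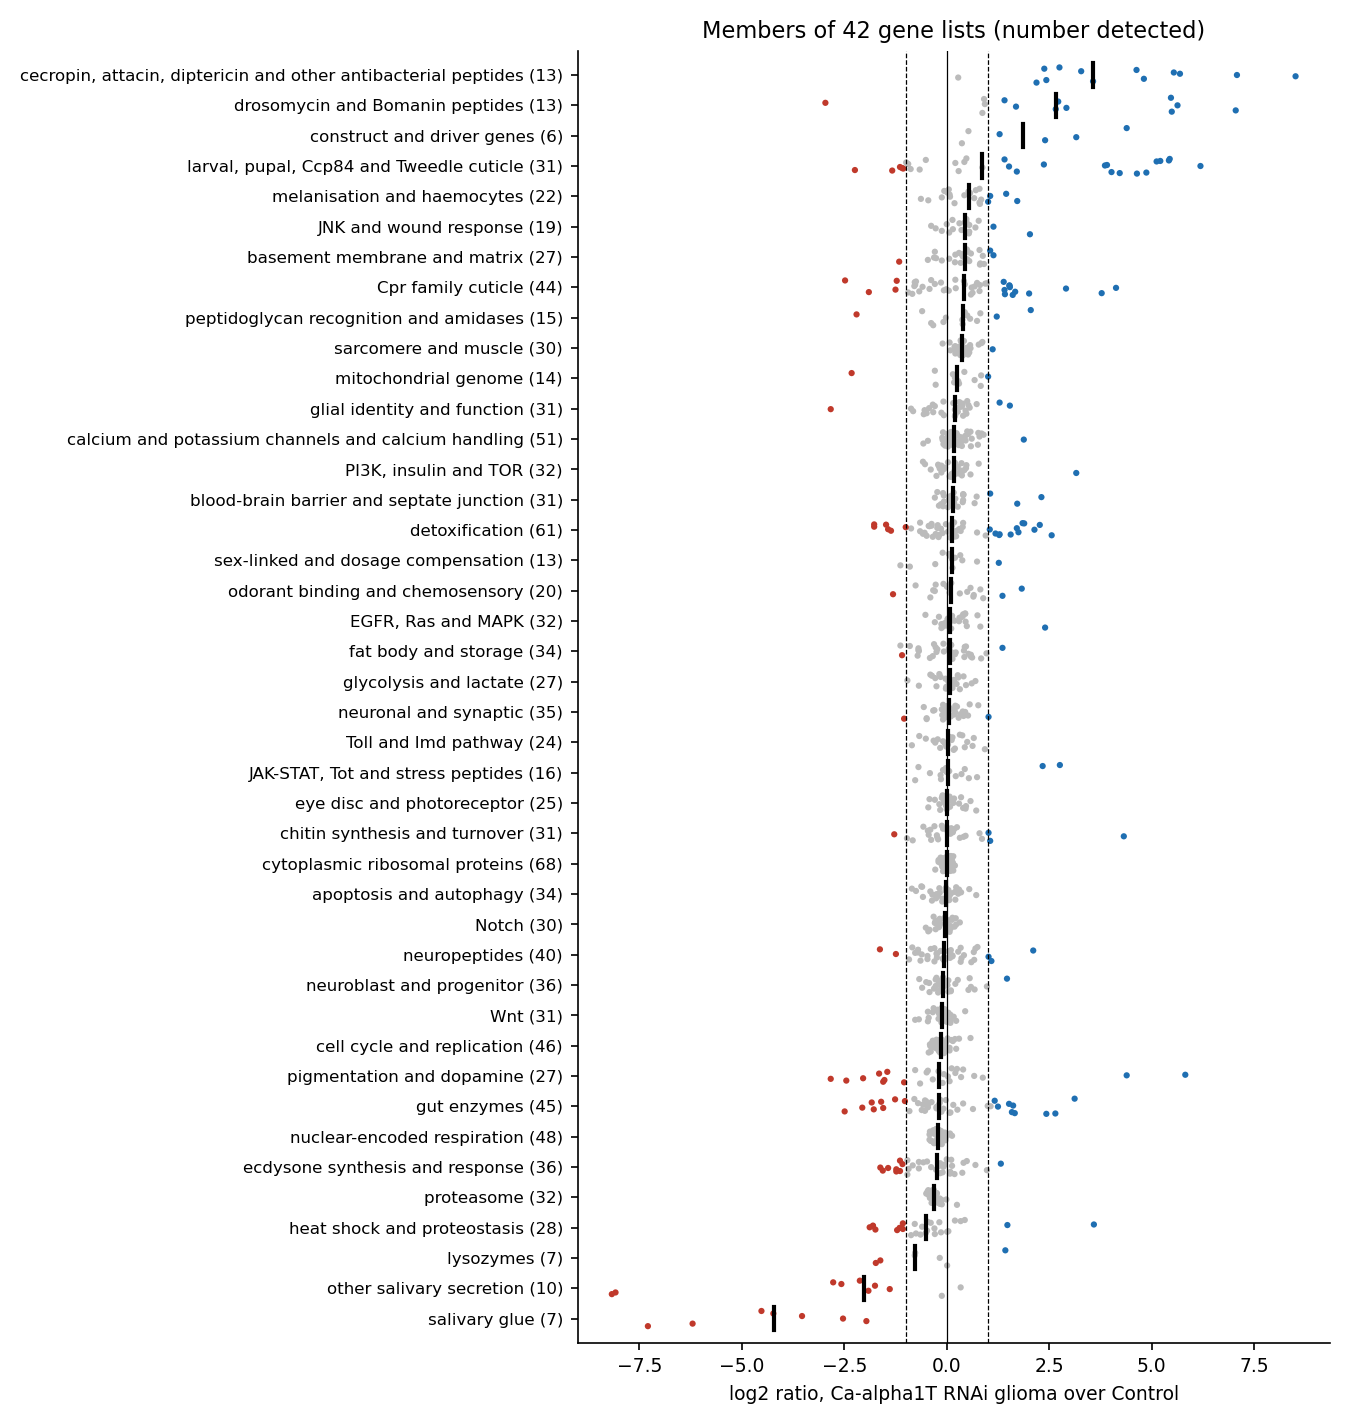
Log2 ratio of the RNAi library over Control (x axis) for each detected member of 42 gene lists (rows, with the number detected). Points are genes, blue if called higher, red if called lower and grey if not called, bars mark list medians and dashed lines mark 2-fold; the medians run from 3.57 for antibacterial peptides to −4.23 for salivary glue.

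Genes for antibacterial peptides, small secreted proteins that break bacterial membranes, stood well above Control. Of 13 detected genes 12 were higher and none lower, against 6.05% and 4.15% of all genes, and the summed level was 54.1 CPM in Control, 134 in Glioma, 935 in the RNAi library and 30.3 in slo RNAi. The cecropin genes were at the top. CecA1 had 9 counts in Control, 2 in Glioma, 3085 in the RNAi library and 11 in slo RNAi, a log2 ratio of 8.51 (7.67 to 9.73). CecB had 4, 3, 541 and 17 counts in the same order, a ratio of 7.08 (5.89 to 9.14), and CecC had 86, 37, 3954 and 515, a ratio of 5.69 (5.39 to 6.02). For all 3 cecropin genes Glioma had fewer counts than Control, and the RNAi library stood above the other 3 libraries. CecA1 and CecB, with fewer than 10 counts in Control, entered the comparison only through the RNAi library. These genes are neighbours on chromosome 3R between 30210874 and 30216938 (dm6), and as close copies they may share reads.

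Genes of peptides against Gram-negative bacteria were also higher, with Glioma between Control and the RNAi library for most of them. DptA, a diptericin gene, was at 30.3 CPM in Control, 71.1 in Glioma, 294 in the RNAi library and 1.56 in slo RNAi, a log2 ratio of 3.28 (3.19 to 3.37). Its neighbour DptB was at 6.52, 22.2, 162 and 0.763 CPM, a ratio of 4.63 (4.45 to 4.82). The attacin genes AttA, AttB, AttC and AttD had ratios of 2.19, 3.57, 2.43 and 4.81, and the drosocin gene Dro 2.38. The exceptions to that order were AttC, at 16.5 CPM in Glioma and 11.7 in the RNAi library, and AttD, at 1.90 CPM in Glioma and 3.79 in Control. Def, which encodes a defensin active on Gram-positive bacteria, had 85, 247, 3533 and 13 counts, a ratio of 5.54 (5.24 to 5.88). Mtk, whose product acts on fungi and bacteria, was at 1.73, 0.0566, 11.7 and 0.862 CPM, a ratio of 2.75 (2.38 to 3.15). The member not called, CG43236, stood at 0.28 (−0.28 to 0.85).

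**Figure D3:**
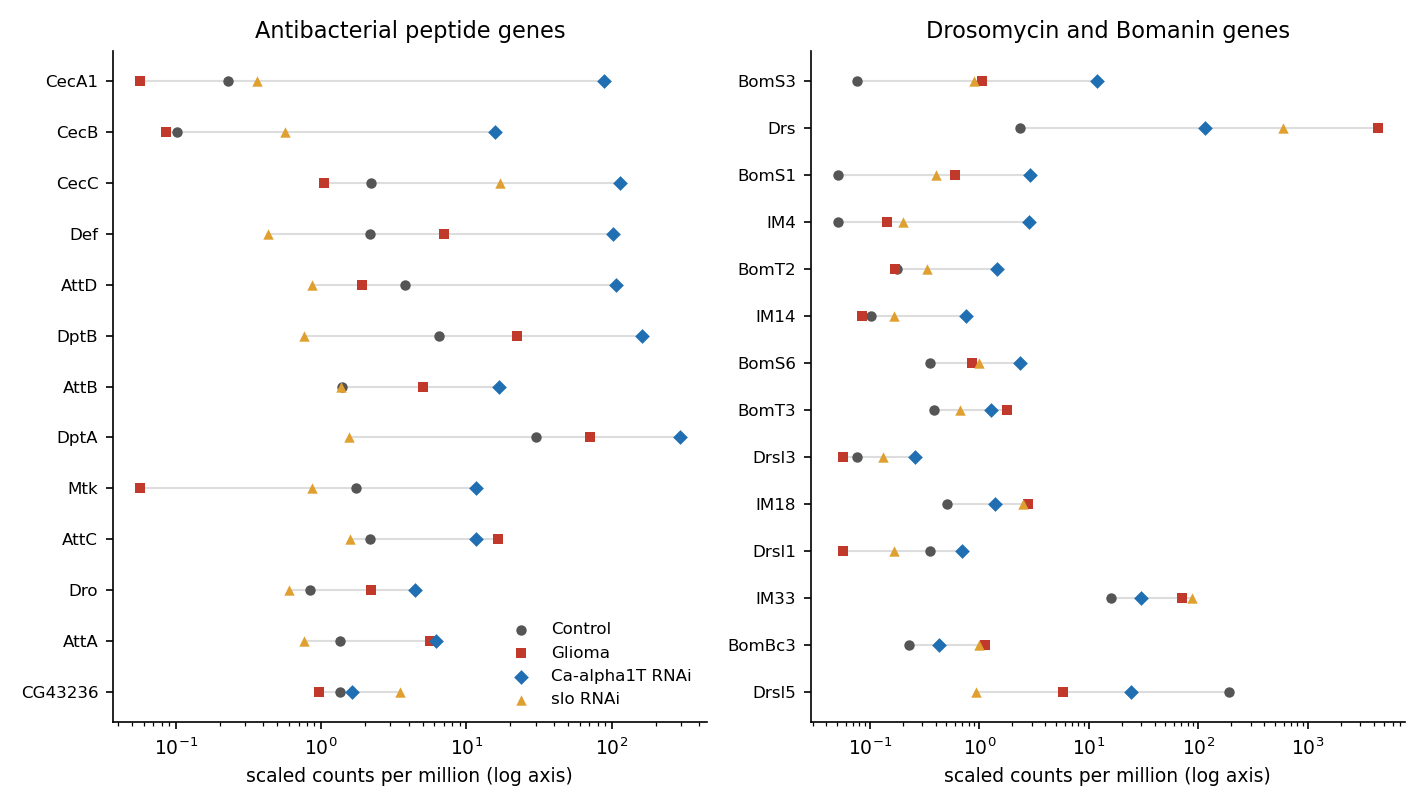
CPM (x axis, log) of the antibacterial peptide genes (left) and the drosomycin and Bomanin genes (right) in the 4 libraries, 1 point per library. The RNAi library (blue diamonds) is rightmost for the cecropin genes, while Drs reaches 116 CPM there and 4350 CPM in Glioma, and Drsl5 is highest in Control at 190 CPM.

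Peptide genes of the Toll pathway, which answers fungi and Gram-positive bacteria, were also mostly above Control. Of 13 detected drosomycin and Bomanin genes 9 were higher and 1 lower, against 6.05% and 4.15% of all genes. Of the higher genes, BomS3, BomS1, IM4, BomT2 and IM14 had fewer than 10 counts in Control. They entered the comparison only through the RNAi library, so for them passing the filter and being called higher are not separate results. Among genes whose larger count was 10 to 99, the share called higher was 16.6%. Their median log2 ratio was 2.66, which became 1.56 on the authors' FPKM and 4.20 with a minimum of 50 counts. That minimum drops members of few counts, such as IM14 and Drsl1, so 4.20 is the median of fewer genes. Drs, the gene of the antifungal peptide drosomycin, had 92 counts in Control, 153512 in Glioma, 4046 in the RNAi library and 17973 in slo RNAi. Its ratio over Control was 5.63 (5.34 to 5.95), with the RNAi library the lowest of the 3 libraries with oncogene constructs. Bomanins are short peptides secreted on infection. BomS3 had 3, 37, 414 and 27 counts, a ratio of 7.05 (5.73 to 9.57), and BomS1 had 2, 21, 100 and 12, a ratio of 5.49 (3.93 to 8.88). BomS1, BomS3, BomT2 and BomS6 are neighbours on chromosome 2R and were all called higher, as were IM4 at 5.47, IM14 at 2.72, BomT3 at 1.69 and IM18 at 1.41. Drsl5, a gene of the drosomycin family, went the other way, at 190 CPM in Control, 5.78 in Glioma, 24.3 in the RNAi library and 0.929 in slo RNAi, a ratio of −2.96 (−3.07 to −2.86). The summed level of the list was 210 CPM in Control and 197 in the RNAi library, with Drsl5 the member of most counts in Control and Drs in the RNAi library.

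Some of the genes that sense bacteria were called, but none of those listed that carry the signal. Among 15 peptidoglycan recognition genes 2 were higher and 1 lower, against 6.05% and 4.15% of all genes. PGRP-SD, a secreted recognition protein gene, was at 4.91 CPM in Control, 6.17 in Glioma, 20.3 in the RNAi library and 3.58 in slo RNAi, a log2 ratio of 2.05 (1.82 to 2.29). PGRP-LF, an inhibitor of the Imd pathway, was at 2.34, 8.98, 5.49 and 6.60 CPM, a ratio of 1.22 (0.86 to 1.60), and PGRP-SB1, an amidase gene, at 4.15, 3.26, 0.891 and 0.531 CPM, a ratio of −2.20 (−2.82 to −1.66). The gut amidase genes PGRP-SC1a and PGRP-SC1b were not called, at 0.82 and 0.44. Glioma held them at 646 and 390 CPM, against 32.0 and 20.0 in Control and 56.7 and 27.1 in the RNAi library. None of 24 Toll and Imd pathway genes was called, and their median was 0.04. The ratios farthest from 0 among them were 0.93 for Dif, a transcription factor of the Toll pathway, −0.85 for SPE, the protease that activates the Toll ligand, −0.67 for spirit, a protease upstream of it, and 0.66 for pirk, an inhibitor of Imd. Rel, the transcription factor of the Imd pathway, was at 76.8, 109, 119 and 136 CPM, a ratio of 0.63 (0.56 to 0.70).

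Haemocytes, fat body and gut can each make these peptides, and their marker lists stood as follows beside the peptide genes. The 34 fat body genes summed to 21700 CPM in Control and 19200 in the RNAi library, with 1 member higher and 1 lower and a median of 0.09. The called members were Npc2h, at 1.36, and Fbp2, at −1.09. Fbp1, the receptor of larval serum proteins, was not called, at 4240 CPM in Control, 395 in Glioma, 2590 in the RNAi library and 1800 in slo RNAi. Of 22 blood cell and melanisation genes 4 were higher and none was lower, against 6.05% and 4.15% of all genes. Their summed level was 550 CPM in Control and 712 in the RNAi library. Those higher were Hml, the haemocyte clotting factor gene, at 1.01 (0.86 to 1.16), the scavenger receptor gene Sr-CI at 1.45, the integrin gene ItgaPS4 at 1.72 and the prophenoloxidase gene PPO3 at 1.06. Under at least 1 alternative setting Hml, ItgaPS4 and PPO3 fell below 2-fold, to 0.65, 0.54 and 0.23, while Sr-CI stayed at 1.13 or more. The part of haemocytes, fat body and gut in the peptide values was not tested.

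Some cytokine and wound genes were higher. Of 16 JAK-STAT and stress peptide genes 2 were higher and none lower, against 6.05% and 4.15% of all genes. The gene upd3, which encodes a cytokine of the pathway, had 28 counts in Control, 77 in Glioma, 171 in the RNAi library and 141 in slo RNAi, a log2 ratio of 2.76 (2.20 to 3.42). Another such gene, upd2, had 13, 68, 60 and 138 counts, a ratio of 2.34 (1.50 to 3.37). Under at least 1 alternative setting the ratio of upd2 came to 0.64, within 2-fold. Their receptor gene dome stood at −0.09, the transcription factor gene Stat92E at 0.74 and the feedback inhibitor gene Socs36E at 0.54. Of 19 JNK and wound genes 2 were higher, again against 6.05% of all genes. They were Ets21C, a transcription factor gene under JNK control, at 2.03 (1.74 to 2.34) and Timp, a metalloprotease inhibitor gene, at 1.14 (1.02 to 1.26).

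Salivary gland genes stood far below Control. All 7 glue genes, whose products fix the pupa to its support, were lower, against 4.15% of all genes, and their summed level was 25400 CPM in Control, 1130 in Glioma, 1620 in the RNAi library and 10100 in slo RNAi. Sgs1 had 40355, 80, 228 and 7180 counts in the same order, a log2 ratio of −7.29 (−7.49 to −7.10). Sgs3 had 266901, 6351, 3214 and 60868 counts, a ratio of −6.20 (−6.25 to −6.15). The other ratios were −4.52 for Sgs8, −4.23 for Sgs7, −3.53 for Sgs5bis, −2.53 for Sgs5 and −1.96 for Sgs4. For each glue gene Control held the most counts, while Sgs3 and Sgs7 were lower in the RNAi library than in Glioma and the other members were higher.

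A further 8 of 10 salivary genes were lower and none higher, against 4.15% and 6.05% of all genes. Eig71Ea and Eig71Eb, ecdysone-induced genes at band 71E, had 2433 and 1671 counts in Control and 7 and 5 in the RNAi library, with 2 and 3 in Glioma and 59 and 15 in slo RNAi. Their log2 ratios were −8.17 (−9.58 to −7.22) and −8.08 (−9.83 to −6.98), that of Eig71Ee was −1.91 and that of the mucin gene Muc68E was −1.39. The ng genes, which encode an earlier gland secretion, stood apart from the glue genes in the order of libraries. Thus ng3 was at 786 CPM in Control, 883 in Glioma, 115 in the RNAi library and 2790 in slo RNAi, a ratio of −2.77 (−2.82 to −2.73). In the same order ng2 was at 242, 503, 40.7 and 800 CPM and ng1 at 172, 261, 51.3 and 599 CPM, so that the RNAi library was the lowest of the 4 for each of them. The gland's own transcription factor gene sage was at 120, 31.0, 27.6 and 108 CPM, a ratio of −2.12 (−2.22 to −2.02). The transcription factor genes fkh and CrebA, which salivary and other tissues use, were not called, at 0.34 (0.23 to 0.45) and −0.12 (−0.18 to −0.05). The genes ng1, ng2, ng3 and Sgs4 lie in a stretch of 6 neighbouring lower genes on chromosome X.

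**Figure D4:**
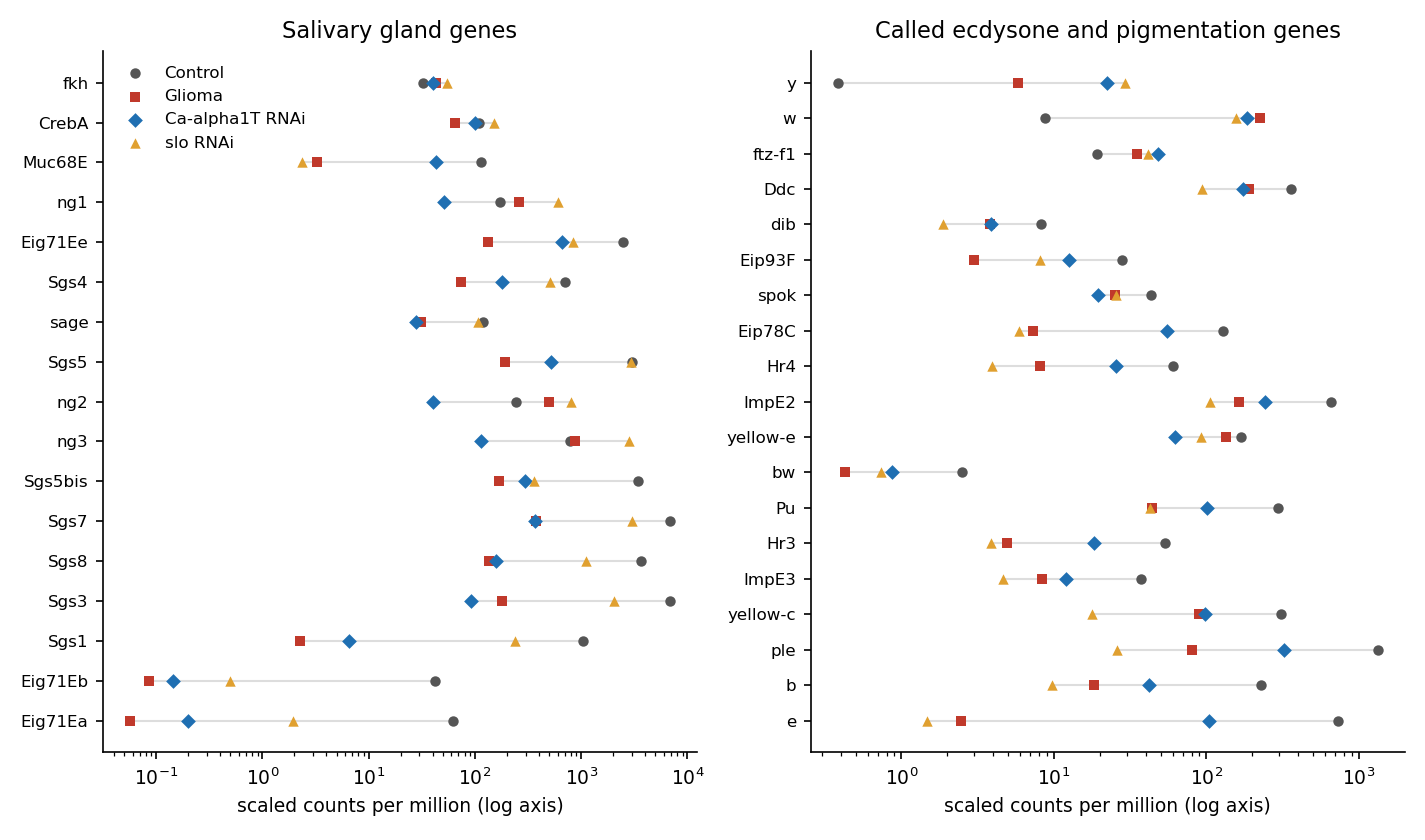
CPM (x axis, log) of the 17 salivary genes (left) and of the called ecdysone and pigmentation genes (right) in the 4 libraries, 1 point per library, ordered by the ratio of the RNAi library over Control. Control (grey) is rightmost for all 7 glue genes; for e, Control is at 734 CPM, the RNAi library at 104, Glioma at 2.46 and slo RNAi at 1.46.

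Genes of the ecdysone response were lower where called, with a single exception. Of 36 genes 8 were lower and 1 higher, against 4.15% and 6.05% of all genes, with a median log2 ratio of −0.23. Hr3, a nuclear receptor gene switched on by the hormone pulse, was at 53.8 CPM in Control, 4.93 in Glioma, 18.3 in the RNAi library and 3.85 in slo RNAi, a ratio of −1.56 (−1.69 to −1.43). Eip78C, another such receptor gene, was at 129, 7.25, 55.0 and 5.90 CPM, a ratio of −1.23 (−1.30 to −1.15). In both, the RNAi library lay between Control and the other libraries. Lower too were the receptor gene Hr4, at −1.23, and Eip93F, which encodes a factor of late metamorphosis, at −1.14. The hormone-induced genes ImpE2 and ImpE3 stood at −1.43 and −1.62. Among the genes that make the hormone, spok and dib were lower, at −1.14 and −1.08, whereas sro, phm, nvd and sad, at −0.96, −0.68, −0.57 and −0.48, were not called. The hormone's receptor gene EcR, at 0.08, and the early response genes br, Eip74EF and Eip75B, at −0.05, −0.10 and 0.09, were not called either. The exception was ftz-f1, a receptor gene that acts between hormone pulses, at 19.3, 34.8, 48.4 and 41.4 CPM, a ratio of 1.32 (1.20 to 1.45).

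Genes that tan and colour the cuticle from tyrosine were lower in larger number than higher. In the pigmentation and dopamine list 8 of 27 genes were lower and 2 higher, against 4.15% and 6.05% of all genes, and the summed level was 3860 CPM in Control, 1240 in Glioma, 1460 in the RNAi library and 878 in slo RNAi. The first enzyme of the pathway, tyrosine hydroxylase, is encoded by ple, which was at 1330, 80.1, 323 and 26.1 CPM, a log2 ratio of −2.04 (−2.07 to −2.01). Pu, which makes its cofactor, stood at −1.55 and Ddc, the dopa decarboxylase gene, at −1.04. The gene e, whose enzyme joins dopamine to beta-alanine, had 28819 counts in Control, 87 in Glioma, 3600 in the RNAi library and 44 in slo RNAi, a ratio of −2.83 (−2.88 to −2.78). The gene b, whose enzyme makes the beta-alanine, stood at −2.45 (−2.53 to −2.37). The other members lower were yellow-c at −1.65, bw, an eye pigment transporter gene, at −1.52, and yellow-e at −1.45. For e, ple and b the RNAi library again lay below Control and above both Glioma and slo RNAi. The gene y, needed for black pigment, went the other way, with 15, 205, 774 and 876 counts, a ratio of 5.82 (5.13 to 6.71), and w was the other member higher.

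Cuticle protein genes were called in both directions. By the authors' TPM, a level per transcript length, the median in Control was 2310 for the 9 genes called lower, 1.52 for the 27 called higher and 32.0 for those not called. Control is the denominator of the ratio that made the call, so these medians describe the genes and carry no finding of their own. Among 31 larval, pupal, Ccp84 and Tweedle genes 15 were higher and 5 lower, against 6.05% and 4.15% of all genes. Yet the summed level was 20600 CPM in Control and 10200 in the RNAi library, against 30000 in Glioma and 30800 in slo RNAi. Lcp1, a gene of the larval cuticle, was at 6230 CPM in Control, 4970 in Glioma, 2470 in the RNAi library and 7370 in slo RNAi, a log2 ratio of −1.33 (−1.34 to −1.32). Lcp2 was at 2420, 1670, 512 and 3030 CPM, a ratio of −2.24 (−2.26 to −2.21), and all 5 detected Lcp genes outside the 65A cluster were below 0. Both genes were lowest in the RNAi library.

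All 4 Ccp84A genes were higher, with ratios of 4.87 for Ccp84Ad, 4.64 for Ccp84Aa, 4.22 for Ccp84Ab and 4.02 for Ccp84Ag, and their summed level was 3.56 CPM in Control, 20.3 in Glioma, 80.9 in the RNAi library and 8.03 in slo RNAi. Among the Tweedle genes, a family of cuticle proteins with effects on body shape, Twdlalpha had 26, 138, 1019 and 54 counts, a ratio of 5.44 (4.91 to 6.09). TwdlL, TwdlM and TwdlO, neighbours on chromosome 3R, stood at 5.12, 5.21 and 5.42, and TwdlO alone of them was high in slo RNAi too, with 260 counts against 247 in the RNAi library. The Lcp65A cluster on chromosome 3L held both kinds. Lcp65Af had 13, 40, 877 and 10 counts, a ratio of 6.19 (5.47 to 7.17), and Lcp65Ag1, Lcp65Ag2 and Lcp65Ag3 stood at 3.86, 3.91 and 2.37. Lcp65Ab1 and Lcp65Ab2, at 1390 and 989 CPM in Control, stood at −1.06 and −1.09, and Lcp65Ad at −1.14. Outside these families Edg78E was higher at 1.71, and among the Tweedle genes TwdlV at 1.41. Copies within the cluster are near identical, so single values are uncertain.

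**Figure D5:**
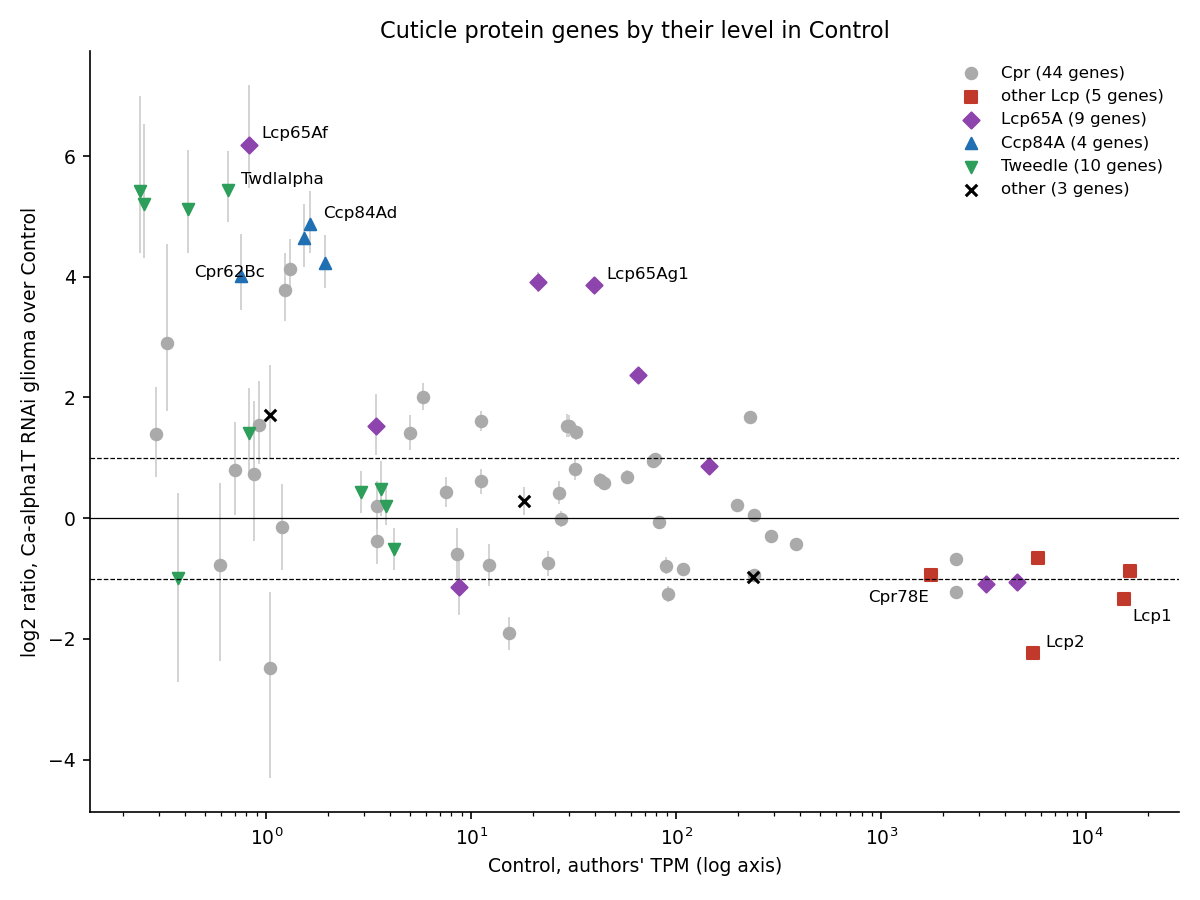
Log2 ratio of the RNAi library over Control (y axis) for 75 cuticle protein genes against the authors' TPM in Control (x axis, log), by family. Bars are 95% counting intervals, which cover counting error only, and dashed lines mark 2-fold; the 5 Lcp genes outside the 65A cluster lie below 0, and the 4 Ccp84A genes lie between 4.02 and 4.87.

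The larger Cpr family of chitin-binding cuticle proteins had 12 of 44 genes higher and 4 lower, against 6.05% and 4.15% of all genes, with a median of 0.43. Cpr62Bc had 42 counts in Control, 86 in Glioma, 659 in the RNAi library and 37 in slo RNAi, a log2 ratio of 4.13 (3.70 to 4.63). Cpr35B had 30, 4, 372 and 5 counts, a ratio of 3.78 (3.27 to 4.40). The RNAi library was the highest for both. Cpr78E was at 788 CPM in Control, 511 in Glioma, 338 in the RNAi library and 524 in slo RNAi, a ratio of −1.22 (−1.25 to −1.19). The others lower were Cpr92A at −2.48 (−4.30 to −1.23), Cpr47Ee at −1.90 and Cpr51A at −1.25. The others higher were Cpr5C at 2.91 (1.78 to 4.54), Cpr31A at 2.01, and Cpr47Eg, Cpr100A, Cpr64Ad, Cpr65Ax1, Cpr65Ax2, Cpr11B, Cpr49Ah and Cpr73D between 1.39 and 1.67. Of 31 genes of chitin itself 3 were higher and 1 lower, against the same 6.05% and 4.15%. The chitin synthase gene Chs2 stood at 1.06 and Idgf3, of the chitinase-like family, at 1.02. Cht9, of the chitinase family, had 5, 395, 97 and 9 counts, a ratio of 4.32 (3.18 to 6.11). Gnpnat, an enzyme gene on the path to the chitin precursor, was at 93.8, 59.1, 38.6 and 81.6 CPM, a ratio of −1.28 (−1.37 to −1.19).

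Digestive enzyme genes were called in both directions. Of 45 genes 9 were higher and 8 lower, against 6.05% and 4.15% of all genes. Of the higher, 6 were for starch and sugar enzymes, and of the lower, 7 were for proteases. The starch enzyme genes Amy-p and Amy-d, close copies, stood at 2.65 and 2.43. Amy-p had 204 counts in Control, 2781 in Glioma, 1137 in the RNAi library and 238 in slo RNAi. The glucosidase gene tobi, a target of insulin signalling, was at 5.83, 26.5, 50.8 and 10.8 CPM, a log2 ratio of 3.12 (2.92 to 3.33), and the maltase genes Mal-A1, Mal-A4 and Mal-B1 stood at 1.25, 1.62 and 1.52. Among proteases, Jon65Ai was at 114, 478, 20.3 and 56.8 CPM, a ratio of −2.49 (−2.61 to −2.38), Jon99Fii stood at −2.06 and the trypsin genes betaTry and epsilonTry at −1.60 and −1.02. The other proteases lower were Ser6 at −1.83, Jon74E at −1.78 and Jon99Fi at −1.55, and the lipase gene mag stood at −1.26. Protease genes were also among the higher, namely Jon25Biii, at 70.3, 1290, 212 and 38.2 CPM and a ratio of 1.59, etaTry at 1.17 and Bace at 1.66. The lysozyme genes LysC and LysD were lower, at −1.73 and −1.62, and LysX higher, at 1.43. The summed level of the gut list was 28300 CPM in Control and 19800 in the RNAi library.

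Muscle and energy genes, whose summed levels were higher in Glioma than in Control, lay near Control in the RNAi library. The 30 muscle genes summed to 23400 CPM in Control, 74900 in Glioma, 31100 in the RNAi library and 47300 in slo RNAi. A single gene was called, Msp300, which anchors muscle nuclei, at 316, 795, 688 and 669 CPM, a log2 ratio of 1.12 (1.09 to 1.15). Of the 30, 29 lay above 0, with a median of 0.38, against a median of −0.02 over all genes. Mhc, the muscle myosin heavy chain gene, was at 2180, 8500, 3120 and 4580 CPM, a ratio of 0.51 (0.50 to 0.53). The giant sarcomere proteins encoded by sls, bt and Unc-89 had ratios of 0.87, 0.85 and 0.78.

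No glycolysis gene was called of 27, with a median of 0.07 and a summed level of 6740 CPM in Control, 13600 in Glioma, 6670 in the RNAi library and 11400 in slo RNAi. The largest ratios were −0.96 for Pepck1, an enzyme gene of sugar synthesis, 0.70 for Pdk, a kinase gene that holds back pyruvate use, and −0.68 for the glucose transporter gene Glut1. Ldh, the lactate dehydrogenase gene, was at 180, 512, 185 and 317 CPM, a ratio of 0.04 (−0.01 to 0.09). None of 48 nuclear genes of respiration was called, and 3 lay above 0, with a median of −0.20 and a lowest ratio of −0.42, for COX8 and ND-B17. The 14 genes of the mitochondrial genome had a median of 0.26, with ND3 higher at 1.01 (0.91 to 1.11) and ND6, on 19 against 3 counts, lower at −2.32 (−4.89 to −0.72).

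Glial genes were called at about the share of all genes. In the glial list of 31 genes 2 were higher, repo and ltl, and 1 lower, e, against 6.05% and 4.15%, with a median of 0.20. The gene ltl was at 24.3 CPM in Control, 63.5 in Glioma, 70.7 in the RNAi library and 46.4 in slo RNAi, a log2 ratio of 1.54 (1.43 to 1.65). The astrocyte gene alrm was not called, at 22.6, 27.3, 12.8 and 19.6 CPM, a ratio of −0.82 (−0.99 to −0.65), nor was gcm, the gene that starts glial fate, at −0.87. Glia also form the blood-brain barrier. Of 31 barrier and septate junction genes 3 were higher and none lower, against 6.05% and 4.15% of all genes. The receptor gene moody, which shapes the barrier, was at 26.0, 174, 129 and 140 CPM, a ratio of 2.31 (2.21 to 2.41). The transporter gene Mdr65, which pumps drugs out, was at 21.8, 140, 71.9 and 123 CPM, a ratio of 1.72 (1.61 to 1.83). For both, the RNAi library was the lowest of the libraries with oncogene constructs and stood above Control.

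The matrix gene trol, which encodes perlecan of the basement membrane, was the other barrier gene higher, at 198, 326, 412 and 351 CPM, a log2 ratio of 1.06 (1.02 to 1.10). Of 27 detected matrix genes 2 were higher, trol and Timp, and 1 lower, Loxl1, a lysyl oxidase gene, at −1.16. The median was 0.43. A set of 9 integrin and basement membrane genes all lay above 0. It was picked by symbol after values were seen, so this carries no finding of its own. The collagen genes Col4a1 and vkg and the laminin gene LanA stood at 0.81, 0.80 and 0.82 and were not called. Other genes of the matrix list, left out of that set, lay below 0 without being called. These were Mp at −0.46, Ppn at −0.31, pio at −0.29, Plod at −0.26 and Mmp2 at −0.12.

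In the lists of the activated pathways the construct genes alone were called. Of 32 EGFR, Ras and MAPK genes Egfr alone was called. The feedback genes that EGFR signalling switches on stood at 0.46 for aos, 0.82 for Mkp3, 0.45 for sty and 0.35 for kek1, and the MAP kinase gene rl itself at 0.75. Of 32 PI3K, insulin and TOR genes Pi3K92E alone was called. The growth inhibitor gene Thor stood at 0.47, the insulin receptor gene InR at 0.37 and the transcription factor gene foxo at 0.48. The calcium and potassium channel list, with a median of 0.19, had 1 of 51 genes higher and none lower. The gene called was the leak channel gene Ork1, with 22 counts in Control, 57 in Glioma, 73 in the RNAi library and 53 in slo RNAi, a log2 ratio of 1.88 (1.20 to 2.66). Under at least 1 alternative setting the ratio of Ork1 came to 0.36, within 2-fold. The slo gene stood at 0.53 (0.40 to 0.66) and the other voltage-gated calcium channel genes Ca-alpha1D and cac at 0.59 and 0.19.

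Brain lists lay close to Control. Of 36 neuroblast and progenitor genes only slp1, a temporal factor gene of optic lobe neuroblasts, was called, with 424 counts in Control, 776 in Glioma, 1040 in the RNAi library and 557 in slo RNAi, a log2 ratio of 1.47 (1.31 to 1.64). The gene chinmo, a factor of early-born neurons, stood at 0.98 and was not called. Of 35 neuronal genes the RNA-binding protein gene Rbp9 was higher, at 1.02, and Ddc lower. No cell cycle gene of 46 was called, with a median of −0.13, and PCNA, the replication clamp gene, stood at −0.41 and Cdk1 at −0.44. Notch, Wnt, eye disc, and apoptosis and autophagy lists held none called of 30, 31, 25 and 34, with medians of −0.03, −0.11, 0.02 and −0.03. The largest ratios in them were −0.77 for the ligand gene Wnt2 and −0.85 for the cell death gene grim.

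Neuropeptide genes, each made by few neurons, were called at about the share of all genes, 3 higher and 2 lower of 40 against 6.05% and 4.15%. Pdf, the peptide gene of the clock neurons, had 204 counts in Control, 196 in Glioma, 58 in the RNAi library and 146 in slo RNAi, a log2 ratio of −1.63 (−2.09 to −1.21). Ilp5, an insulin-like peptide gene of the brain's insulin cells, had 158, 198, 59 and 218 counts, a ratio of −1.24 (−1.70 to −0.81). The RNAi library was the lowest of the 4 for both. Nplp2 was higher, at 37.9, 184, 163 and 238 CPM, a ratio of 2.11 (2.03 to 2.19). The tanning hormone gene Burs and the eclosion hormone gene Eh were higher on fewer counts, at 1.09 (0.33 to 1.92) and 1.02 (0.54 to 1.52).

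Heat shock genes were called lower more often than higher. Of 28 genes 8 were lower and 2 higher, against 4.15% and 6.05% of all genes, with a median log2 ratio of −0.49. Among the small heat shock genes at band 67B, a group that ecdysone also switches on, Hsp23 was at 2720 CPM in Control, 778 in Glioma, 1170 in the RNAi library and 658 in slo RNAi, a ratio of −1.21 (−1.23 to −1.20). Hsp26, Hsp27, Hsp67Ba and Hsp67Bc stood at −1.74, −1.07, −1.15 and −1.88. The Hsp70 copies went both ways, with Hsp70Aa and Hsp70Ab at −1.80 each, Hsp70Bc at −1.07, Hsp70Ba at 1.48 and Hsp70Bb, at 50.4, 417, 607 and 336 CPM, at 3.59 (3.52 to 3.66). These copies are near identical and may share reads, and their sum was 496 CPM in Control and 776 in the RNAi library. The proteasome list had none called of 32, with 1 gene above 0 and a median of −0.30. The 68 ribosomal protein genes also had none called, with a median of 0.00 and ratios from −0.28 to 0.20.

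Detoxification genes were called in both directions, 12 higher and 6 lower of 61, against 6.05% and 4.15% of all genes. The cytochrome P450 gene Cyp4p1 had 58 counts in Control, 124 in Glioma, 305 in the RNAi library and 1464 in slo RNAi, a log2 ratio of 2.56 (2.16 to 3.00). Of the Cyp6a genes 4 of 10 were higher, with Cyp6a9 at 1.75, Cyp6a13 at 1.56, Cyp6a14 at 1.29 and Cyp6a20 at 1.19. Cyp4p2 was higher at 1.28 and Cyp9b2 lower at −1.36. The glutathione transferase gene GstD2 stood at 2.14, GstE10 at 1.71, GstD3 at 1.05, GstD4 at −1.43 and GstE5, at 5.22, 8.18, 1.52 and 6.10 CPM, at −1.77 (−2.24 to −1.33). GstE3 was also lower, with 1186 counts in Control and 524 in the RNAi library. The glycosyltransferase genes Ugt35B1 and Ugt35C1 were higher at 1.89 and 1.85. The metallothionein genes, which bind metals, also split, with MtnD and MtnE at −1.48 and −1.77 and MtnB at 2.27. Of 20 odorant binding and chemosensory genes 2 were higher and 1 lower, against 6.05% and 4.15% of all genes. The higher were Obp57b and Obp19d, at 1.83 and 1.36, and the lower was Obp44a, at −1.31. In the list of sex-linked genes fru, a transcription factor gene of the sex pathway, was higher at 1.27. For the male-specific RNAs the ratios were 0.74 for lncRNA:roX1 and 0.38 for lncRNA:roX2, with a summed level of 362 CPM in Control, 532 in Glioma, 600 in the RNAi library and 279 in slo RNAi. The part of the sex of the larvae in other values was not tested.

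Some of the lowest genes stood in no salivary or ecdysone list and were low in the RNAi library against all others. The gene lcs had 6151 counts in Control, 5564 in Glioma, 163 in the RNAi library and 7556 in slo RNAi, a log2 ratio of −5.06 (−5.30 to −4.84). The carboxypeptidase gene hiro had 2115, 3282, 78 and 770 counts, a ratio of −4.58 (−4.93 to −4.26). Culd, a gene for a membrane protein with CUB and LDLa domains, had 7441, 7842, 346 and 426 counts, a ratio of −4.25 (−4.41 to −4.10), and was low in slo RNAi as well. Others were low in all libraries with oncogene constructs. Hsc70-2, a heat shock cognate gene, had 1018, 112, 33 and 121 counts, a ratio of −4.75 (−5.32 to −4.27). Ugt37A3, a glycosyltransferase gene, had 2185, 145, 90 and 148 counts, a ratio of −4.42 (−4.75 to −4.12). The serpin gene Spn100A stood at −3.11 and the odorant receptor gene Or71a, on 184 against 3 counts, at −5.56 (−8.05 to −4.19).

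The homeotic gene Abd-B, which patterns the posterior abdomen, was also among the lowest. It had 168 counts in Control, 52 in Glioma, 10 in the RNAi library and 29 in slo RNAi, a log2 ratio of −3.83 (−4.98 to −2.98). Under at least 1 alternative setting this ratio came to −0.76, within 2-fold. The other homeotic genes were looked up after the value of Abd-B was seen. The abdominal gene abd-A had 710, 444, 303 and 389 counts, a ratio of −1.05 (−1.25 to −0.86). Ubx, which acts farther forward, stood at −0.19, the thoracic gene Antp at 0.15 and the head and neck genes Scr, Dfd, pb and lab at −0.38, −0.45, 0.47 and 0.64. Thus 2 of the 8 homeotic genes were lower, Abd-B and abd-A, against 4.15% of all genes. Abd-B was the reason for the look-up and abd-A lies just past 2-fold, so this count carries no finding of its own. A pattern by body region was not tested. With lncRNA:bxd, lncRNA:iab8 and AhcyL2, the genes Abd-B and abd-A form a stretch of 5 neighbouring lower genes on chromosome 3R, from 16742125 to 16982158 (dm6).

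Some called genes lay beside each other. In 32 places 3 or more neighbouring detected genes were called in the same direction, 22 of them higher and 10 lower. These places held 110 genes, while 691 genes were called higher and 474 lower in all. How many such places unlinked calls would give was not tested. The places included the Dro, AttA and AttB genes, the Lcp65A genes from Lcp65Ag2 to Lcp65Ae, and the glue genes Sgs8, Sgs7 and Sgs3. Some hold close copies, such as the cecropin genes, which may share reads. Chromosome X had 4.51% of its genes higher and 2.58% lower, 2R had 7.50% and 3.08%, and 3R had 5.44% and 5.79%. Calls also followed the depth behind a gene. Of genes whose larger count was 10 to 99, 16.6% were higher and 9.21% lower, while of those at 10000 or more 3.41% were higher and 7.68% lower. Of 314 long non-coding RNA genes 16.6% were higher and 9.24% lower. At the edge of the limit of 10 counts, 464 listed genes had a larger count of 9 or less and 99 had 10 or 11.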

How the data were processed

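The authors deposited whole-number read counts per gene, with FPKM and TPM per library, in 1 table, per the file headers. The deposited table also holds the authors' signed fold changes (a score that is negative for genes lower), p-values and adjusted p-values per pair of libraries, per the file headers; these were used only for the comparison with the authors' calls. Per the submitters' processing notes, the tools included edgeR, StringTie 2.1.3b, HISAT2 2.1.0, Trimmomatic 0.38 and FastQC 0.11.7, in roles not given there, with dm6 as the build. Libraries were made with a stranded kit, per the labels' protocols; the use of strand in counting is not given in the sources, so antisense and overlapping genes are uncertain. Every listed gene has at least 1 count in every library, and genes at 0 in any library were not analysed here.

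Counts were scaled by TMM (edgeR 4.0.16 in R 4.3.3) across all 4 libraries, with factors of 1.06 for Control, 0.909 for Glioma, 1.10 for Ca-alpha1T RNAi and 0.939 for slo RNAi. CPM is on the scaled library sizes. Log2 ratios used a prior count of 0.5, and 95% intervals were exact conditional binomial intervals of 2 counts (scipy 1.17.1, Python 3.11.15). These cover counting error only, since each group is 1 library. PCR copies are not independent molecules, so even that error may be understated. A called gene had at least 10 counts in 1 or both libraries, a 2-fold difference and an interval excluding equality. A gene with fewer than 10 counts in 1 library thus entered only through the library where its count was larger. The calculation was tested on simulated data.

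The members and the 42 lists were chosen with earlier results of these data known. Of 1355 list entries 1227 matched a listed gene, as 1181 distinct genes. Lists are described by counts and medians, and the shares of all genes called are given for comparison. Genes are named by a rule: the construct and driver genes, in each direction the 15 called genes whose nearer interval bound lies farthest from 0 (bare clone and RNA numbers left out, 722 of the called genes), every called list member, and up to 4 uncalled members per list with the largest ratio. Other genes were chosen after their values were seen; these are the tissue markers, pathway members set beside called ones, and the homeotic genes. Families by symbol were also counted after values were seen. Positions are from the RefSeq and Ensembl annotations of the dm6 assembly. Alternatives were DESeq2 1.42.0 size factors, total counts with and without the mitochondrial genome, TMM from 2 libraries, no filter, at least 50 counts, 4-fold, a prior count of 5, the authors' FPKM plus 1 and the authors' TPM plus 1.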

Additional observations from a re-analysis of the deposited data

How the results depend on the processing

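At 4-fold 194 genes were higher and 135 lower. On the authors' FPKM plus 1, 338 were higher and 227 lower, and on their TPM 521 were higher and 219 lower, against 691 and 474. Scaling by total counts without the mitochondrial genome gave 799 and 398, at least 50 counts 501 and 374, and the other settings between 630 and 752 higher and between 436 and 475 lower. The Wnt median of −0.11 turned to 0.05 on the authors' TPM, and the medians of the Notch, apoptosis and autophagy, cell cycle, neuroblast and neuropeptide lists, none below −0.13, also turned positive under at least 1 setting, to at most 0.14. Of 188 called named genes 146 kept their call under every alternative other than 4-fold, and none reversed under any alternative. Those that came within 2-fold under at least 1 setting included Ork1, upd2, Ugt35B1 at 0.44, Mal-B1 at 0.53, bw at −0.49 and Cpr92A at −0.6. The cause of these differences was not tested. No paired analysis was possible because each group holds 1 library, and for the same reason no replicate could be left out. Depth limits genes of few counts: on 10 to 99 counts, calls were more frequent, and a ratio on 2 or 3 counts has an interval several log2 units wide.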

Other observations

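Among genes with bare clone numbers, which the naming rule leaves out and which were picked after their values were seen, some differed as much as the peptide and glue genes. CG17290 had 2 counts in Control, 11 in Glioma, 1032 in the RNAi library and 7 in slo RNAi, a log2 ratio of 8.85 (7.33 to 12.23). CG43325 had 14, 108, 2106 and 32 counts, a ratio of 7.36 (6.66 to 8.28), and CG13445 had 6, 12, 858 and 16, a ratio of 7.21 (6.21 to 8.79). The RNAi library stood above the other 3 for each. At the other end, CG4151 had 2156, 2, 3 and 7 counts, a ratio of −9.10 (−11.59 to −7.76), while CG14852 had 1945, 1014, 16 and 1414 counts, a ratio of −6.71 (−7.56 to −6.05), and was low in the RNAi library alone.

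Several named genes in no list, also picked after their values were seen, differed at least 2-fold from Control, with cad on few counts. The ABC transporter gene Mrp4 was at 25.7 CPM in Control, 360 in Glioma, 523 in the RNAi library and 369 in slo RNAi, a log2 ratio of 4.35 (4.26 to 4.44). The epithelial sodium channel family gene ppk13 was at 5.02, 11.9, 54.0 and 18.1 CPM, a ratio of 3.43 (3.22 to 3.65). The heat- and irritant-sensing channel gene TrpA1 was at 72.6, 71.0, 14.5 and 78.6 CPM, a ratio of −2.33 (−2.47 to −2.19), so that the RNAi library alone was low. The light receptor gene of the clock, cry, was at 8.15, 1.44, 1.78 and 3.65 CPM, a ratio of −2.18 (−2.61 to −1.80). The homeobox gene cad, which acts in the posterior body and the gut, had 72, 100, 21 and 39 counts, a ratio of −1.58 (−2.38 to −0.88).

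A ribosomal RNA pseudogene, 28SrRNA-Psi:CR45862, was at 231 CPM in Control, 187 in Glioma, 3.71 in the RNAi library and 13.8 in slo RNAi. This row stood in no list.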
